A study of Homo sapiens with 6 samples.

Results

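CXCL8 and 9 other genes of inflammatory chemokines (CXCL1, CXCL2, CXCL3, CXCL5, CXCL6, CXCL10, CXCL16, CCL2 and CCL20) were followed in HepG2 cells after silencing of DGUOK, the gene of mitochondrial deoxyguanosine kinase. The genes were chosen by symbol, with the difference between the siDGk and siCON libraries already known, and all 10 were found among the 34036 genes of the count table. Their values are therefore a description, and no call of a member counts as evidence. HepG2 is a line derived from a hepatocellular carcinoma, and 1 such line was used. Cells on plates coated with poly-D-lysine received either a pool of siRNAs against DGUOK (siDGk) or a non-targeting siRNA (siCON), both delivered with Lipofectamine RNAiMAX, and were collected after 48 h. RNA sequencing gave 3 libraries per group. The groups are told by the sample titles and library names, as the treatment entry gives the control siRNA for each library. Library totals were 19065684, 18915508 and 10527216 counts for siCON 1, 2 and 3, and 18613138, 15978314 and 21334876 counts for siDGk 1, 2 and 3.

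Chemokines are small secreted proteins that steer migrating leukocytes through G protein-coupled receptors. CXCL8 (interleukin-8), CXCL1, CXCL2, CXCL3, CXCL5 and CXCL6 attract neutrophils through CXCR1 and CXCR2, CXCL10 attracts activated T cells through CXCR3, CCL2 attracts monocytes through CCR2, CCL20 attracts cells bearing CCR6, and CXCL16 is made as a membrane protein that binds CXCR6. In hepatocytes many of these genes are known to be switched on by interleukin-1 and tumor necrosis factor through NF-kB, together with AP-1 and C/EBP factors, and the mRNAs of several are short-lived.

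The silenced gene was examined first. DGUOK (ENSG00000114956.19, chr2:73926826-73958961 on GRCh38) had 1019, 997 and 506 counts in siCON 1, 2 and 3. It had 168, 171 and 146 counts in siDGk 1, 2 and 3. The siDGk libraries were thus all below the siCON libraries, as the titles say. In CPM, with library sizes scaled by TMM, siCON held 51.9 ± 3.26 and siDGk 8.77 ± 1.92 (SD, n = 3). By edgeR's quasi-likelihood test it fell by 2.57 on the log2 scale (standard error 0.19), with an adjusted p of 1.64e-08.

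The members share known regulators, whose motifs were sought in their promoters. RefSeq promoter windows on GRCh38.p14 (250 bases before the start site and 50 from it on) were found for 8 of the 10 genes, all but CXCL16 and CCL2. Of 4 short motifs searched, the NF-kB motif GGNNTTTCC, read on both strands, was present in 8 of these 8 windows and in 6.26% of the 35116 promoter windows of the same length. The AP-1 motif TGANTCA, on both strands, was in 1 of the 8 (CXCL8) and in 7.71% of all windows. The C/EBP motif TTGCNNAA, on both strands, was in 1 of the 8 (CXCL2) and in 3673 of all windows. TATAAA, read on the strand of the gene, was in 2 of the 8 (CXCL8 and CCL20) and in 7.33% of all windows. No matches overlapped in the windows of these 8 genes. Around the NF-kB matches the windows of CXCL1, CXCL2 and CXCL3 are closely alike, as are those of CXCL5 and CXCL6. The 8 windows are thus not independent, and their share was not tested against that of all windows. A match is a description of letters and not a bound site. The search took fixed letters, so a window without a match can still hold a site that is spelled otherwise. The windows of 4 genes are printed 5′ to 3′ on the strand of the gene, since they pair both abundant genes that have a window with a pair that was barely counted; capitals mark the matches. The windows lie at chr4:73740319-73740618 (plus strand) for CXCL8, chr4:73869143-73869442 (plus) for CXCL1, chr4:74099146-74099445 (minus) for CXCL2 and chr2:227813592-227813891 (plus) for CCL20.
CXCL8: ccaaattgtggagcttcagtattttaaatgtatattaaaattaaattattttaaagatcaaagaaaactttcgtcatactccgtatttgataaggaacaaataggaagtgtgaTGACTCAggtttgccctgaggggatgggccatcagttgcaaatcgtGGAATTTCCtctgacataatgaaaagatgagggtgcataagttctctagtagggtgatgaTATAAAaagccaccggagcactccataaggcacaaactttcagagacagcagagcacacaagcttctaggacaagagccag
CXCL1: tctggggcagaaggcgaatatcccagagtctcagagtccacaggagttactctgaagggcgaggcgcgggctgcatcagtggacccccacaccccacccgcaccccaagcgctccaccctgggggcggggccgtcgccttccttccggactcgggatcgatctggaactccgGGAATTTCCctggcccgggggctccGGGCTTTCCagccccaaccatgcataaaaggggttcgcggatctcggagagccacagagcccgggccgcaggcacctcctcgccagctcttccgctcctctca
CXCL2: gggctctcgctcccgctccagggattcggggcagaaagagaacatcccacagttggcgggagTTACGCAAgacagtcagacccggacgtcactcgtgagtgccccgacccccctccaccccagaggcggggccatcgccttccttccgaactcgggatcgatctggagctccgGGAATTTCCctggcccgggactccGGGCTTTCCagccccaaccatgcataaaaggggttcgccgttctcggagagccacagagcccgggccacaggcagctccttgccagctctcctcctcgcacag
CCL20: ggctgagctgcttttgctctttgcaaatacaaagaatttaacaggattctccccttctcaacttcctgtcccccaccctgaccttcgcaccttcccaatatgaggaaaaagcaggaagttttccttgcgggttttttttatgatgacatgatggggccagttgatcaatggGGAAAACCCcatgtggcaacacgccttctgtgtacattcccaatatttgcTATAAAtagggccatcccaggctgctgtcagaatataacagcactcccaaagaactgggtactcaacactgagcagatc
In CXCL8 the AP-1 match begins 137 bases, the NF-kB match 91 bases and TATAAA 31 bases before the start site. The NF-kB letters GGAATTTCC stand in the CXCL8 window and also in those of CXCL1, CXCL2, CXCL3, CXCL5 and CXCL6. CXCL1, CXCL2 and CXCL3 hold a further NF-kB match, GGGCTTTCC, closer to the start site. In CCL20 the NF-kB match begins 79 bases before the start site and is on the opposite strand.

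CXCL8 (ENSG00000169429.10, chr4:73740519-73743716, plus strand) was the member that differed most between the groups. It had 302, 303 and 182 counts in siCON 1, 2 and 3, and 3760, 3282 and 5660 counts in siDGk 1, 2 and 3. After scaling, the level was 16.1, 16.1 and 17.3 CPM in siCON 1, 2 and 3. The siDGk libraries held 203, 202 and 260.4 CPM. Every siDGk library was far above every siCON library, and siDGk 3 was the highest. Mean levels were 16.5 ± 0.700 CPM in siCON and 222 ± 33.4 CPM in siDGk (SD, n = 3). The log2 fold change was 3.75, with a standard error of 0.12. In bulk RNA, more cells with the transcript and more transcript per cell cannot be told apart. Among the 9226 tested genes that averaged 10 CPM or more, CXCL8 ranked 16 by log2 fold change, and among all 14476 tested genes it ranked 97. By mean CPM it stood at rank 7807 of all genes in siCON and at rank 695 in siDGk.

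CCL20 (ENSG00000115009.11, chr2:227805739-227817564, plus strand), the ligand of CCR6, had 2439, 3041 and 1380 counts in siCON 1, 2 and 3. It had 3687, 3349 and 3922 counts in siDGk 1, 2 and 3. Its levels were 130.3, 162 and 132 CPM in siCON 1, 2 and 3, against 199, 206 and 180.4 CPM in siDGk 1, 2 and 3. The groups did not overlap; siCON 2 was the highest of its group and siDGk 3 the lowest of the other. Means were 141 ± 18.0 and 195 ± 13.3 CPM (SD, n = 3). This is a log2 fold change of 0.47 with a standard error of 0.10, just under the fold threshold of 0.5 used for calls. Without siCON 2 the log2 fold change was 0.58, and without siDGk 3 it was 0.51, both past that threshold.

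CXCL16 (ENSG00000161921.14, chr17:4733533-4739928, minus strand), the transmembrane chemokine, had 2025, 2205 and 1073 counts in siCON 1, 2 and 3. It had 1983, 1292 and 1558 counts in siDGk 1, 2 and 3. Levels were 108, 117 and 102 CPM in siCON 1, 2 and 3, and 107, 79.5 and 71.7 CPM in siDGk 1, 2 and 3. The groups overlapped through siDGk 1, which lay among the siCON libraries. Means were 109 ± 7.66 and 86.1 ± 18.6 CPM (SD, n = 3). On the log2 scale the fold change was −0.35, with a standard error of 0.13. If siDGk 1 was left out it was −0.55 and past the thresholds. Its gene span overlaps MED11 and ZMYND15 on the opposite strand, so reads there cannot be assigned without strand.

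**Figure D1:**
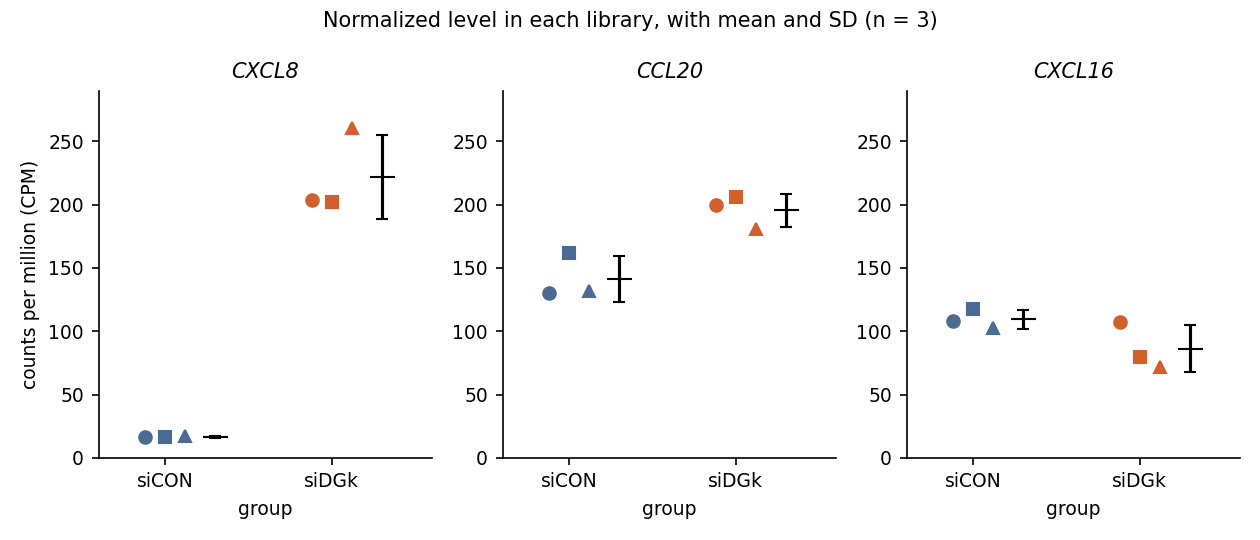
Level of CXCL8, CCL20 and CXCL16 in CPM on a common linear axis, 1 point per library (circle, square and triangle for replicates 1, 2 and 3; siCON blue, siDGk orange), with the mean and SD of each group as black bars. CXCL8 goes from 16.5 to 222 CPM, while CCL20 lies at 141 and 195 CPM and CXCL16 at 109 and 86.1 CPM.

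In both groups these 3 genes made up nearly all chemokine transcripts counted among the 10. Summed over the 10 genes, siCON held 268 ± 24.7 CPM and siDGk 505 ± 12.3 CPM (SD, n = 3). CXCL8 gave 6.32%, 5.44% and 6.87% of that sum in siCON 1, 2 and 3. It gave 39.8%, 41.1% and 50.7% of the sum in siDGk 1, 2 and 3. The ratio of CXCL8 to CCL20 in CPM went from 0.118 ± 0.0168 to 1.15 ± 0.257, and in siDGk 2 it was 0.980. On the scale of CPM per kilobase of exon, which allows levels of different genes to be compared, the order in siCON was CCL20 (88.6), CXCL16 (39.1) and CXCL8 (6.39). In siDGk it was CCL20 (123 ± 8.34), CXCL8 (85.7 ± 12.9) and CXCL16 (30.8 ± 6.67). CXCL8 thus moved above CXCL16 and stayed below CCL20. Of the tested genes with a length, 63.3% had a lower level per kilobase than CXCL8 in siCON and 97.0% in siDGk.

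The other 7 genes did not pass the filter on low counts and were not tested. Each of the 7 fell below 10 counts in at least 1 library: CXCL1, CXCL2, CXCL3, CXCL5, CXCL6, CXCL10 and CCL2. Of these, CXCL3, CXCL6 and CXCL10 stayed below 10 counts in all 6 libraries. CXCL3 had 0 counts in each library. CXCL6 had 1 count and CXCL10 had 2 counts, all of them in siDGk 1, where 21057 genes had a count compared with 16205 to 17583 in the other 5 libraries. CXCL1 had 0 counts in each siCON library and 8, 6 and 25 counts in siDGk 1, 2 and 3. CCL2 likewise had 0 counts in siCON, and 6, 28 and 0 counts in siDGk 1, 2 and 3. CXCL2 had 10, 0 and 6 counts in siCON 1, 2 and 3, and 2, 15 and 0 in siDGk 1, 2 and 3. CXCL5 had 0, 18 and 9 counts in siCON 1, 2 and 3, and 2, 5 and 0 in siDGk 1, 2 and 3. Only for CXCL1 among the 7 were all siDGk libraries above all siCON libraries. A total of 0 over the siCON libraries allows up to 0.0625 CPM (3 counts over the group), for counting error only.

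**Figure D2:**
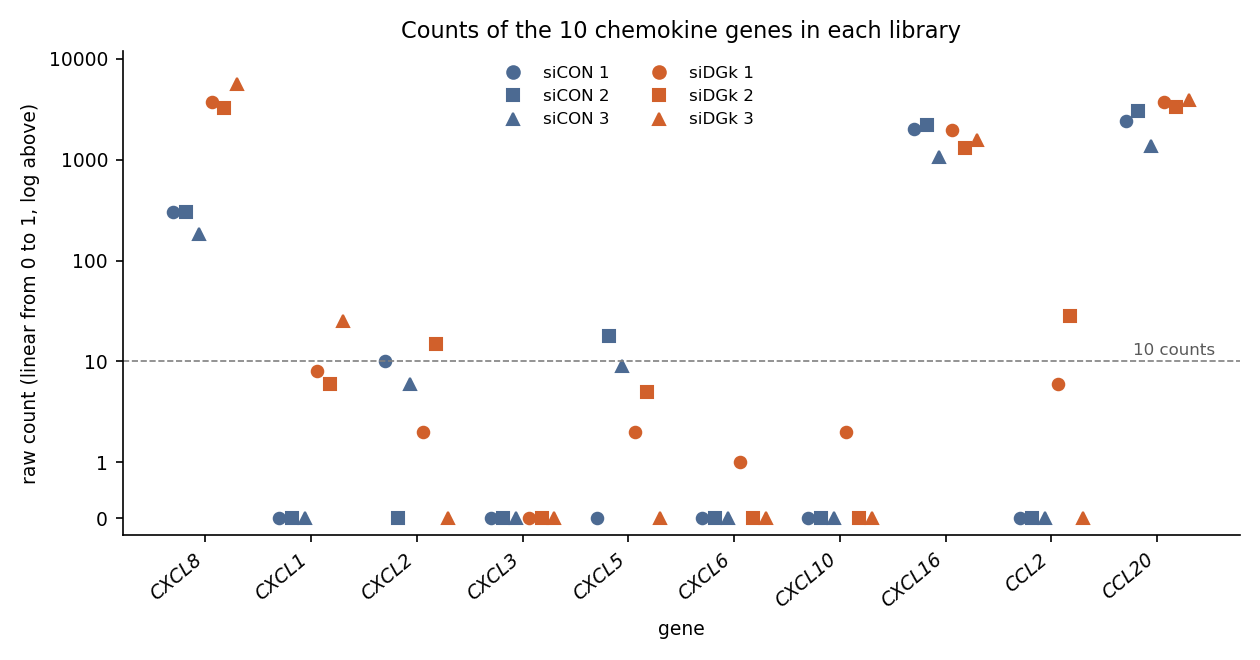
Raw counts of the 10 genes in each of the 6 libraries (linear from 0 to 1, logarithmic above; siCON blue, siDGk orange; circle, square and triangle for replicates 1, 2 and 3), with a dashed line at 10 counts. CXCL8, CXCL16 and CCL20 lie above 100 counts in each library, and the other 7 genes reach at most 28.

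Counts of this size were much less even between replicates than counting error gives. Among the 1543 genes with 10 to 19 counts summed over siCON 1 and siCON 2, 67.7% had all of them in a single library, where counting error alone gives 0.0507%. With 20 to 49 counts the share was 24.8%, and with 50 to 199 counts it was 0.982%. In siDGk 1 and siDGk 2 the shares were 47.3%, 13.2% and 0.903%. No fold is therefore given for CXCL1, CCL2, CXCL2 or CXCL5. Reads that align to several places were left out by the counting, which can lower genes with close copies, and CXCL1, CXCL2 and CXCL3 are such a group. CXCL5, CXCL6 and CXCL10 also overlap other annotated genes (a long noncoding RNA, the pseudogene PPBPP1 and ART3, respectively).

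**Figure D3:**
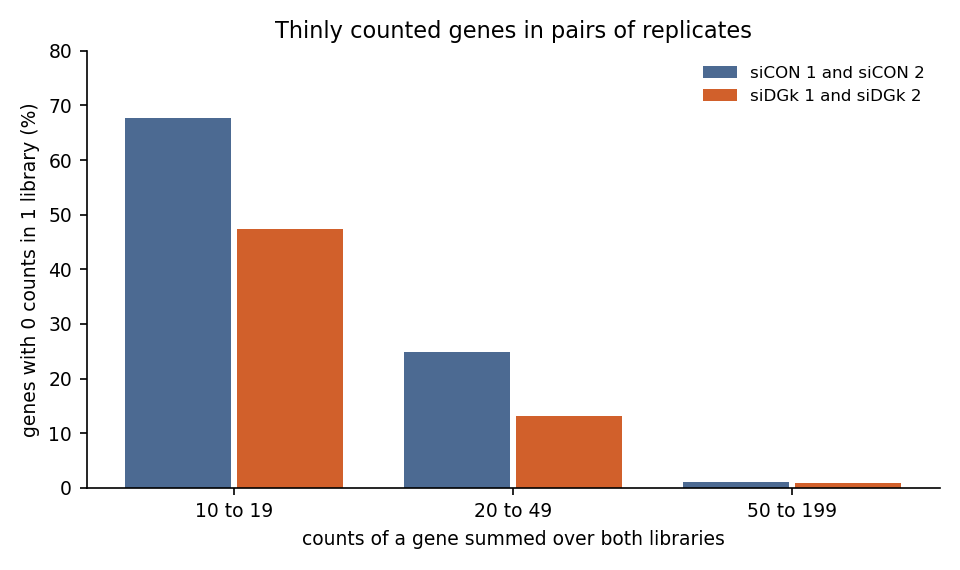
Share of genes with 0 counts in 1 library of a replicate pair (vertical axis, percent), grouped by the counts summed over the pair (horizontal axis), for siCON 1 with siCON 2 (blue) and siDGk 1 with siDGk 2 (orange). The share is 67.7% and 47.3% at 10 to 19 counts and under 1% at 50 to 199 counts, the range below which the 7 thinly counted genes fall.

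Of the 3 members tested, 1 (CXCL8) met the thresholds for a call (adjusted p under 0.05, log2 fold change beyond 0.5 either way). Over all 14476 genes tested, 14.1% met them, 7.42% with higher and 6.68% with lower levels in siDGk. The libraries of the groups did not overlap for 2 of the 3 (CXCL8 and CCL20), and for 36% of all genes tested. Since the members were selected on the same contrast, nothing is read from these counts. The number called was 2 without siCON 2 or siDGk 3 (CCL20 added) and without siDGk 1 (CXCL16 added).

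CXCL8 lies at the edge of a cluster of CXC genes on chromosome 4, and the genes around it gave a mixed picture. The summed CPM of the 6 members in the cluster (CXCL8, CXCL6, CXCL1, CXCL5, CXCL3 and CXCL2) was 12.7 times as high in siDGk as in siCON, and almost all of it came from CXCL8. The lowest coordinates of CXCL6, CXCL1, CXCL5, CXCL3 and CXCL2 lie 96.1, 129, 255, 296 and 357 kb above that of CXCL8. PF4, PF4V1 and PPBP, also of this cluster, were not analysed here. On one side, ALB (albumin) fell from 16113 ± 2372 to 5401 ± 1038 CPM (SD, n = 3), or by 1.58 on the log2 scale (standard error 0.15). AFP (alpha-fetoprotein) fell by 1.41 (standard error 0.10). RASSF6, the closest tested neighbor on that side, was not called, at 0.480 ± 0.456 and 2.84 ± 1.45 CPM, and AFM had 13, 1 and 17 counts in siCON and 0 in siDGk. On the other side, MTHFD2L was not called, at 10.7 ± 3.06 and 15.2 ± 1.46 CPM. Beyond it lie the genes of EGF-like growth factors. EREG (epiregulin), 625 kb away, rose from 4.02 ± 0.955 to 18.0 ± 1.72 CPM (log2 fold change 2.17, standard error 0.28). AREG (amphiregulin), 705 kb away, rose from 51.0 ± 7.80 to 258 ± 27.3 CPM (log2 fold change 2.34, standard error 0.12; edgeR's adjusted p, 7.77e-11). BTC and PARM1 had 1 and 5 counts, all in siDGk 1, and EPGN was not analysed here. Of the 6 neighbors tested, 4 were called, beside 14.1% of all genes tested, and nothing is read from their sides. ALB and AFP, which fell, lie on one side of CXCL8, and EREG and AREG, which rose, on the other. On the side of ALB and AFP, RASSF6 was higher in every siDGk library than in any siCON library. ALB and AFP are also among the hepatocyte markers, of which 8 of 10 were called lower.

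**Figure D4:**
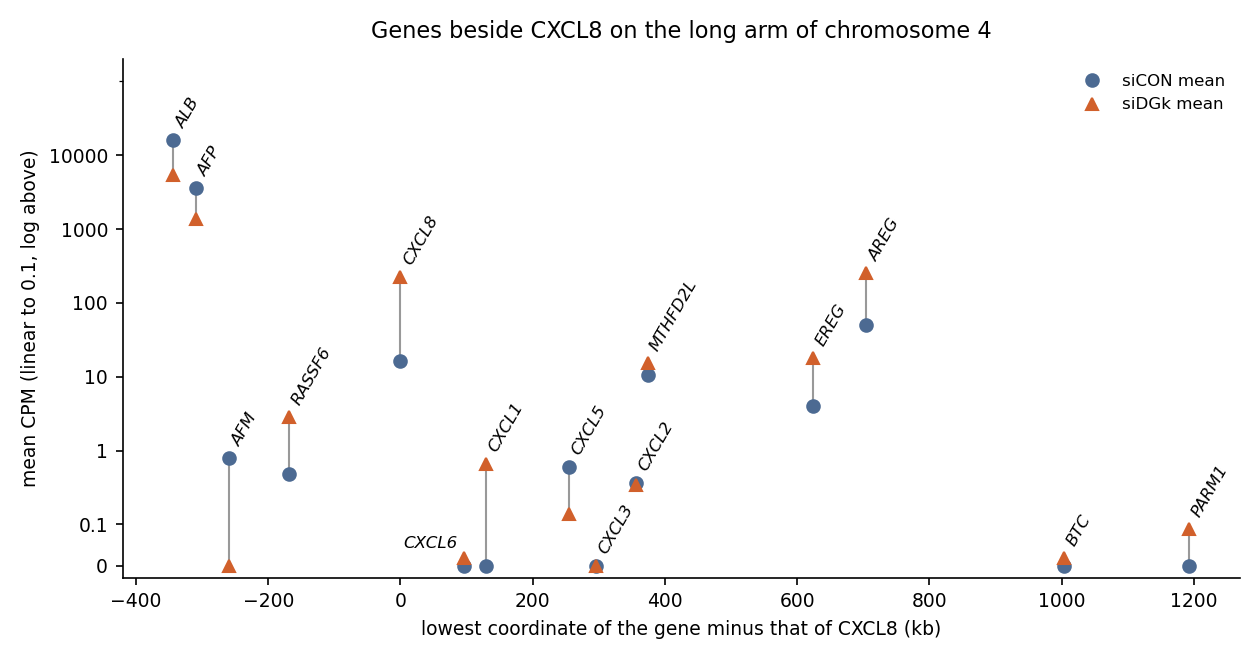
Mean CPM of the genes beside CXCL8 in siCON (blue circles) and siDGk (orange triangles), joined by a line, against the lowest coordinate of each gene minus that of CXCL8 in kb, whichever the strand (vertical axis linear to 0.1, logarithmic above). CXCL8, EREG and AREG are higher and ALB and AFP lower in siDGk, and the other CXC genes lie under 1 CPM in both groups.

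Genes with the pattern most like that of CXCL8 were sought by Pearson correlation of log2 CPM over the 6 libraries among 9225 genes that averaged 10 CPM or more. The most alike were GPRC5A (r = 0.9996), IGFBP4 (0.999), AKAP12 (0.999), SLC2A1 (0.998) and NDE1 (0.998). GPRC5A went from 6.33 ± 0.0700 to 36.0 ± 2.57 CPM and SLC2A1, a glucose transporter, from 809.8 ± 65.0 to 3070.0 ± 189 CPM (SD, n = 3). Among the most opposite were GFM1 (r = −0.999), SCMH1, SULT2A1 and QPRT. SULT2A1, a sulfotransferase of hepatocytes, went from 151 ± 3.92 to 48.6 ± 3.61 CPM. These correlations mostly restate the difference between the groups, and the genes were picked by r itself. Among the members, r with CXCL8 was 0.88 for CCL20 and −0.74 for CXCL16 over the 6 libraries, and −0.57 and −0.70 after removal of the group means.

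The wider pathway was taken from 11 lists ordered by role, with 183 genes outside the members, of which 165 were in the count table and 115 were tested. By edgeR 16 of them rose and 9 fell, 21.7% of those tested beside 14.1% of all genes. The median log2 fold change was 0.02 both over the lists and over all genes tested. Over all genes tested, 7.42% were called higher and 6.68% lower, which are the shares to set beside each list. The lists were chosen with earlier results of these data known, so their counts are a description, and differences between lists were not tested.

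Most other chemokine ligands were barely counted: 5 of the 23 in the table were tested, and 9 had 0 counts throughout. CX3CL1 (fractalkine), a membrane-bound chemokine, was the 1 called. It held 143, 131 and 124 CPM in siCON 1, 2 and 3, and 45.1, 37.6 and 47.4 CPM in siDGk 1, 2 and 3. The fall was −1.61 on the log2 scale (standard error 0.12; edgeR's adjusted p, 1.17e-08). The 2 members of the chemokine family that are anchored in the membrane, CX3CL1 and CXCL16, thus had lower mean levels in siDGk, but CXCL16 was not called. CCL16 and CCL15, chemokines of hepatocytes, were not called, at 10.3 ± 3.06 and 5.64 ± 1.98 CPM for CCL16 and 7.37 ± 2.44 and 5.97 ± 1.72 CPM for CCL15 in siCON and siDGk. Without siDGk 3, CCL16 passed the thresholds at a log2 fold change of −1.20.

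Most receptors were barely counted, with 5 of 17 tested. CXCR1, CXCR2, CCR2 and CX3CR1, the receptors for CXCL8, CCL2 and CX3CL1, had 0 counts in all 6 libraries. CCR6, the receptor for CCL20, had 0, 0 and 1 counts in siCON 1, 2 and 3, and 24, 17 and 0 in siDGk 1, 2 and 3. CXCR6, the receptor for CXCL16, had 0 counts in siCON and 1, 9 and 0 in siDGk 1, 2 and 3. CCR7, a receptor known from lymphocytes and dendritic cells, was the 1 called. Its level rose from 0.639 ± 0.373 to 9.42 ± 0.935 CPM (SD, n = 3), by 3.84 on the log2 scale (standard error 0.49), or 1.95 with the shrunken estimate of DESeq2. Without siCON 2 the log2 fold change of CCR7 was 4.47, as its siCON counts were only 7, 20 and 5. CCR10 had 13, 14 and 32 counts in siCON 1, 2 and 3, and 2, 0 and 0 in siDGk 1, 2 and 3, without overlap of the groups, and was not called. CXCR4 was not called, at 0.686 ± 0.586 and 1.97 ± 1.38 CPM, and neither was the scavenging receptor ACKR2, at 1.41 ± 0.449 and 1.44 ± 0.578 CPM.

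The cues that are known to switch these genes on were also near 0. IL1A, IL1B, TNF and IL17A had no counts in siCON and at most 0.246 CPM on average in siDGk. Of the 15 receptors and adaptors for such cues that were tested, 1 was called. IL1RAP, the accessory chain of the interleukin-1 receptor, had 74.0, 59.1 and 58.7 CPM in siCON 1, 2 and 3, and 32.8, 30.8 and 26.8 CPM in siDGk 1, 2 and 3. It fell by 1.09 on the log2 scale (standard error 0.15). IRAK1, a kinase of the same receptor, had 247 ± 7.30 and 345 ± 3.65 CPM in siCON and siDGk, with a log2 fold change of 0.48 that stayed under the fold threshold, and passed it without siCON 1, at 0.51. TNFRSF1A, a receptor for tumor necrosis factor, had 103 ± 2.70 and 124 ± 8.94 CPM and was not called.

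NF-kB subunits and their kinases gave 1 call among 13 genes tested, with a median log2 fold change of 0.01. TAB3, an adaptor of the kinase TAK1, fell from 55.9 ± 5.44 to 29.1 ± 3.47 CPM (log2 fold change −0.95, standard error 0.15). RELA, which encodes the p65 subunit, was not called, at 52.5 ± 5.61 and 67.2 ± 6.86 CPM, and neither was TAB2, at 68.4 ± 5.68 and 60.1 ± 4.96 CPM. NFKB1, the gene of another subunit, had 35.2 ± 1.97 and 25.1 ± 3.89 CPM, a log2 fold change of −0.49 under the fold threshold. Of the 13 genes, 7 had a positive log2 fold change. Among the feedback inhibitors and other known targets of NF-kB, 1 of 15 was called, and the median log2 fold change was −0.17. ICAM1, an adhesion molecule for leukocytes, had 219, 188 and 173 CPM in siCON 1, 2 and 3, and 93.6, 114 and 94.2 CPM in siDGk 1, 2 and 3. It fell by 0.94 on the log2 scale (standard error 0.11; edgeR's adjusted p, 3.63e-06). SOD2 had 209.8 ± 8.74 and 149 ± 11.8 CPM, a log2 fold change of −0.49, and passed the fold threshold in 5 of 13 other fits. TNIP1 was not called, at 186 ± 20.5 and 178 ± 7.82 CPM. NFKBIA, a feedback inhibitor, had 96.7 ± 4.85 and 70.9 ± 6.97 CPM, a log2 fold change of −0.45 under the fold threshold. Of the 15 genes, 4 had a positive log2 fold change and 14 were not called, and the part of NF-kB in the level of CXCL8 was not tested.

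Of 10 AP-1 factors and related immediate early factors tested, 6 were called higher, beside 7.42% of all genes tested, and none lower. The median log2 fold change was 0.72. Of the 6, ATF3 lost the call without siDGk 2 (0.49) and MAFF without siCON 1 (0.45) or siDGk 3 (0.44). FOSL1 had 5.23, 11.8 and 10.2 CPM in siCON 1, 2 and 3, and 23.8, 24.1 and 25.8 CPM in siDGk 1, 2 and 3. It rose by 1.44 on the log2 scale (standard error 0.26). EGR1 rose from 11.3 ± 2.20 to 30.6 ± 1.70 CPM, or by 1.43 on the log2 scale (standard error 0.20). JUNB rose from 32.9 ± 5.01 to 81.8 ± 14.4 CPM, or by 1.31 on the log2 scale (standard error 0.15). JUN rose from 187 ± 4.23 to 335 ± 15.8 CPM (log2 fold change 0.84, standard error 0.08). JUND and FOSL2, the most abundant of those not called, had 365 ± 23.3 and 311 ± 70.0 CPM, and 112 ± 2.90 and 133 ± 14.2 CPM. Among C/EBP genes, CEBPA, a factor of differentiated hepatocytes, fell from 121 ± 6.86 to 55.8 ± 6.76 CPM (log2 fold change −1.12, standard error 0.11). CEBPB, known for its part in inflammatory genes, was not called, at 181 ± 11.3 and 217 ± 35.6 CPM, and CEBPG had 83.1 ± 15.0 and 79.0 ± 2.01 CPM.

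Interferon factors and receptors, which govern CXCL10, gave 0 calls among 9 genes tested by edgeR. None of the 9 had an adjusted p under 0.05, and the median log2 fold change was 0.06. The chains of the interferon gamma receptor, IFNGR1 and IFNGR2, had 136 ± 7.43 and 139 ± 4.59 CPM, and 78.1 ± 4.35 and 72.4 ± 3.52 CPM, in siCON and siDGk.

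**Figure D5:**
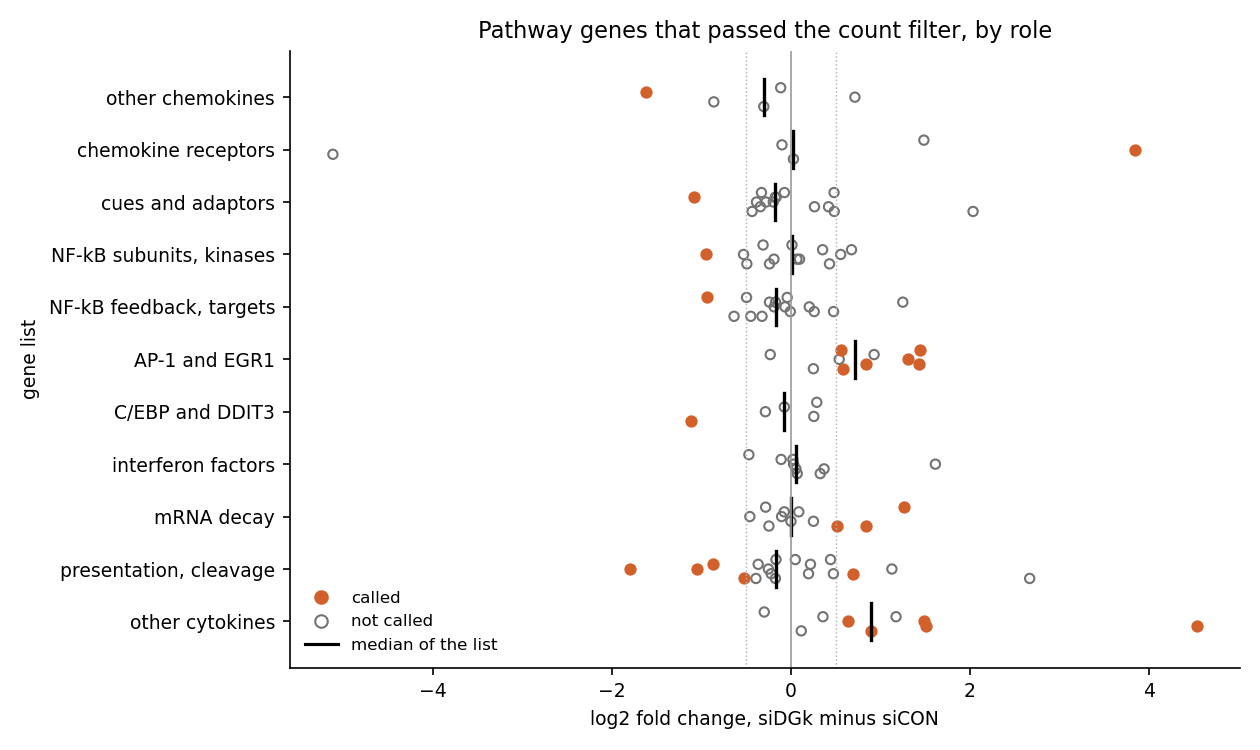
Log2 fold change (siDGk minus siCON) of the 115 tested pathway genes by list, with called genes in orange, other genes as open circles, the median of each list as a black bar and dotted lines at the fold threshold. The median is 0.72 for AP-1 and EGR1 and 0.89 for other cytokines, and between −0.30 and 0.06 for the other 9 lists.

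Chemokine mRNAs with AU-rich ends are known to be removed by decay factors under the control of p38 kinase. Of 11 genes of these factors and of their regulators tested, 3 were called higher, 1 of them a decay factor. ZFP36L1, the decay factor, had 79.4, 103 and 102 CPM in siCON 1, 2 and 3, and 238, 208 and 232 CPM in siDGk 1, 2 and 3. It rose by 1.26 on the log2 scale (standard error 0.10). DUSP1, a phosphatase that ends p38 signaling, had 88.4, 131 and 107 CPM in siCON 1, 2 and 3, and 198, 183 and 203 CPM in siDGk 1, 2 and 3, and rose by 0.84 on the log2 scale (standard error 0.12). MAPKAPK2, a p38 substrate that opposes decay, rose by 0.52 on the log2 scale (standard error 0.12). That call was lost without siCON 2 (0.48), siDGk 1 (0.43) or siDGk 3 (0.47), and with the shrunken estimate of DESeq2 (0.48). KHSRP had 211 ± 31.4 and 200.3 ± 23.4 CPM, and HNRNPD had 184 ± 0.984 and 134 ± 9.71 CPM with a log2 fold change of −0.46; neither was called, although HNRNPD passed without siDGk 2, at −0.52.

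Proteins that hold chemokines at the cell surface or cut them gave 1 gene called higher and 4 lower among 18 tested. ANPEP and DPP4, peptidases that trim chemokines, both fell. ANPEP had 228, 183 and 194 CPM in siCON 1, 2 and 3, and 56.5, 64.1 and 53.9 CPM in siDGk 1, 2 and 3, a log2 fold change of −1.79 (standard error 0.11). DPP4 went from 59.6 ± 10.8 to 32.6 ± 5.41 CPM (log2 fold change −0.87, standard error 0.16). GPC3, a heparan sulfate proteoglycan abundant in hepatoma cells, fell from 4253 ± 48.4 to 2059 ± 90.0 CPM, or by 1.05 on the log2 scale (standard error 0.06). EXT2, a heparan sulfate polymerase, fell by 0.52 on the log2 scale (standard error 0.12), a call that was lost without siCON 1 (−0.45) or siDGk 1 (−0.46). MMP14, a membrane protease, rose from 43.1 ± 4.92 to 69.6 ± 9.21 CPM. SDC2 and SDC1, the most abundant genes of the list that were not called, had 542 ± 27.7 and 481 ± 24.0 CPM, and 295 ± 25.0 and 400.4 ± 11.0 CPM; SDC1 passed without siCON 3, at 0.51.

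Among 9 other cytokines tested, 5 were called higher, beside 7.42% of all genes tested, and none lower. The median log2 fold change was 0.89. IL11, a cytokine that signals through gp130, had 8.81, 5.65 and 13.8 CPM in siCON 1, 2 and 3, and 182, 212 and 235 CPM in siDGk 1, 2 and 3. It rose by 4.53 on the log2 scale (standard error 0.24), or by 2.99 with the shrunken estimate of DESeq2. LIF, of the same family, rose from 19.2 ± 6.10 to 54.2 ± 17.7 CPM (log2 fold change 1.50, standard error 0.24). IL18 rose from 4.25 ± 1.07 to 11.9 ± 2.69 CPM, and CSF1, a growth factor of macrophages, from 47.9 ± 1.40 to 89.0 ± 8.88 CPM. TGFB1 was the other gene called, with a log2 fold change of 0.63. IL6, often made together with CXCL8, had 0 counts in all 6 libraries. IL32 and VEGFA were not called, at 331 ± 26.9 and 269 ± 13.2 CPM and at 219 ± 28.4 and 280.4 ± 25.1 CPM.

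Marker genes were read as a check of the cells. All 10 hepatocyte markers were tested, and 8 were called lower, with the call of HNF4A lost without siCON 1 (−0.46) or siDGk 3 (−0.47). Their summed level was 52936, 47177 and 46188 CPM in siCON 1, 2 and 3, and 27465, 23968 and 22542 CPM in siDGk 1, 2 and 3. ALB was the most abundant in siCON and SERPINA1 in siDGk. SERPINA1 was among those not called, at 7770.0 ± 374 and 7875 ± 553 CPM. The cells thus carried the hepatocyte transcripts that the label implies, most of them at a lower level in siDGk. Of 8 monocyte and macrophage markers, 4 were tested and 0 called by edgeR. LYZ, at 1735 CPM over all libraries, made up nearly all of their sum of 1615 to 1899 CPM, and MARCO was at 0. The thinly counted ones went different ways. PTPRC had 9, 55 and 2 counts in siCON 1, 2 and 3, and 37, 129 and 58 in siDGk 1, 2 and 3. CD163, CSF1R and ITGAM had counts in siCON, at most 23, 16 and 11 in a library, and 0 in siDGk. Of 5 neutrophil markers in the table, 1 was tested and called lower (CSF3R, 20.2 ± 2.49 and 10.4 ± 1.97 CPM), ELANE and CXCR2 were at 0, and the sum was 18.3 to 22.1 CPM in siCON and 8.75 to 12.2 CPM in siDGk. T cell markers had 4 of 5 tested and 0 called; they summed to 6.89, 13.7 and 11.3 CPM in siCON 1, 2 and 3, and 18.3, 31.1 and 9.48 CPM in siDGk 1, 2 and 3. CD4 had the highest mean in siCON (4.44 CPM) and CD3D in siDGk (9.54 CPM). Both B cell markers in the table were tested and CD79A was called higher, but not with the shrunken estimate of DESeq2 (0.25); they summed to 1.28, 1.23 and 1.62 CPM in siCON 1, 2 and 3, and 5.51, 10.0 and 11.4 CPM in siDGk 1, 2 and 3.

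Endothelial markers stood apart in 1 library. Of the 5, 3 were tested and 0 called, and their sum was 1.66, 1.39 and 2.29 CPM in siCON 1, 2 and 3, and 4.48, 59.3 and 4.05 CPM in siDGk 1, 2 and 3. In siDGk 2 VWF was the most abundant, with 510 counts, while siCON 3 and siDGk 3 had none of it, and KDR and TEK were at 0 in siCON. The library with the high endothelial sum, siDGk 2, also held 28 of the 34 counts of CCL2. It was highest too for CD2 (115 counts, at most 20 elsewhere) and PTPRC (129 counts, at most 58 elsewhere). In siDGk 1, 2 and 3, COL3A1 had 148, 254 and 9 counts, and COL1A2 had 124, 169 and 0. The part of other cells in the counts of CCL2 was not tested. With siDGk 2 left out, the log2 fold change of CXCL8 was 3.81, but the libraries kept also hold counts of such markers. COL1A1 had 9, 37 and 11 counts in siCON 1, 2 and 3, and 374, 336 and 379 in siDGk 1, 2 and 3. The part of other cells in the level of CXCL8 was not tested. Fibroblast and stellate cell markers had 3 of 6 tested, with COL1A1 called higher and PDGFRB lower, and summed to 12.1, 15.0 and 10.3 CPM in siCON 1, 2 and 3, and 42.4, 56.1 and 21.6 CPM in siDGk 1, 2 and 3. PDGFRB was the most abundant in siCON (11.0 CPM) and COL1A1 in siDGk (19.4 CPM), and DCN and LUM were at 0 in siCON. PDGFRB lost its call when any 1 library but siDGk 2 was left out (−1.13 to −0.81). The part of these markers in the chemokine levels was not tested.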

How the data were processed

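Bulk RNA-seq of 3 siCON and 3 siDGk cultures of HepG2 was analysed, grouped by sample title. The deposited values are raw gene counts that the authors made from paired-end reads: reads of tRNA, rRNA, adapters and spike-ins were removed, the others were aligned to GRCh38 with STAR 2.6.1, low-complexity reads were dropped, and reads per Gencode gene were counted with featureCounts 1.6.5. By default it takes no account of strand, counts duplicates and skips reads with several alignments or genes. The library kit is not given in the sources used here. The series record calls the replicates independent and biological but does not describe how they were kept apart, so p-values measure the spread between these libraries. Replicates differed more than sampling allows (chi-square over degrees of freedom, 10.7 to 25.7).

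Counts were filtered with filterByExpr (minimum count 10), scaled by TMM and compared by the robust quasi-likelihood test of edgeR 4.0.16 in R 4.3.3, with Benjamini-Hochberg adjustment over 14476 genes. The standard error is the log2 fold change over the square root of F. CPM values use TMM-scaled totals, and log2 CPM a prior count of 2. Exon lengths and positions are from Gencode 44 on GRCh38, and promoters from RefSeq. Alternatives were DESeq2 1.42.0 with and without shrinkage, RLE and upper-quartile scaling, mitochondrial genes left out of the totals, no count filter, the replicate number as a block, no fold threshold and each library left out. Named genes were the members, DGUOK, and up to 4 called genes and 2 abundant uncalled genes per list. The neighbors of CXCL8 and the genes most and least like it were also named. Not all of these are given. The markers, other called genes of the lists, NFKB1, NFKBIA and genes at or near 0 were named after their values were seen. The members and lists were chosen with earlier results of these data known. The steps were tested on simulated counts.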

Additional observations from a re-analysis of the deposited data

How the results depend on the processing

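The members were selected on this contrast, so their values in the alternatives are a description. For CXCL8 the log2 fold change was 3.54 with the shrunken estimate of DESeq2 and lay between 3.61 and 3.81 when 1 library was left out; the shrinkage itself draws estimates toward 0. The number of members called was 2 without a fold threshold (CCL20 added) and 1 to 2 when 1 library was left out (CCL20 or CXCL16 added). The cluster ratio lay between 11.6 and 13.3, genes called between 1704 and 2847, and pathway genes called between 25 and 36.

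The replicate numbers did not pair the libraries: deviations of same-numbered libraries from their group means correlated at 0.024, 0.0166 and −0.00224 across genes. With the replicate block, CXCL8 was at 3.73, 1 member was called, 2077 genes were called, and no gene followed through the alternatives changed its call. Those genes were the tested members, DGUOK, the tested neighbors, and the called genes and 2 abundant uncalled genes of the lists, with the called markers.

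Signs turned in 5 uncalled genes close to 0 when 1 library was left out: ACKR2 (−0.37 to 0.32), CEBPG (−0.21 to 0.0372), IFNGR1 (−0.0102 to 0.0687), KHSRP (−0.17 to 0.0455) and TNIP1 (−0.14 to 0.0186). The cause was not tested. Among the 7 thinly counted members, the counts of CXCL2 and CXCL5 were uneven between replicates in both groups. Those of CXCL1 and CCL2 were uneven in siDGk and 0 in siCON. CXCL3 had 0 counts throughout, and CXCL6 and CXCL10 had 1 and 2 counts in total. The part of depth in these counts was not tested.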
